A study of Ovis aries with 12 samples.

Results

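The 2 highest doses of dietary succinate, 2% (SUC3) and 1% (SUC2) of the feed, were compared directly in sheep back muscle, across all genes that passed a filter on low counts. The comparison used 6 of the 12 libraries of the series, 3 on each diet, and covered 13319 of the 21257 genes in the expression table. RNA was sequenced from the longissimus dorsi, a long muscle running beside the spine, of Tan sheep, a Chinese breed of Ovis aries, aged 5 months. The labels describe 36 sheep kept in single pens, 9 on each of 4 diets, for a 10-day lead-in and a trial of 60 days. All diets shared the same basal feed. The control diet had nothing added, and SUC1, SUC2 and SUC3 had 0.5%, 1% and 2% succinate. The control and SUC1 libraries, 3 each, entered the fit to estimate the spread and are given beside the results. Whether RNA of 1 animal or of several went into each library is not stated, and the p-values reflect only how these libraries vary, some of which may be technical.

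Succinate is an intermediate of the TCA cycle, oxidised in mitochondria by succinate dehydrogenase, and outside cells it is a ligand of the receptor SUCNR1. Skeletal muscle fibres are specified and maintained by a family of basic helix-loop-helix transcription factors, MYF5, MYOD1, MYOG and MYF6, of which MYF6 (also called MRF4) is the most abundant in adult fibres. NFIL3 (E4BP4) is a basic leucine zipper repressor that binds the same D-box sites as the clock-controlled activators DBP, TEF and HLF and is also a regulator of immune cells.

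Library totals overlapped between the diets. Totals of all 12 ranged from 15742428 to 18564057 counts, and a floor of 3 counts was worth 0.157 to 0.207 CPM (counts as a share of the library, after TMM normalisation for library composition), which covers counting error only. The 13 mitochondrially encoded genes took 10.7% ± 1.55 of counts in SUC2 and 11.04% ± 1.55 in SUC3 (SD, 3 libraries each; p = 0.7 in an exact two-sided permutation test, whose smallest possible p is 0.1). The summed level of 8 skeletal muscle identity genes, among them ACTA1, CKM and TTN, was 109342 to 114487 CPM in SUC2 and 120340 to 139074 CPM in SUC3, so the markers of the labelled tissue were present. This sum was higher in every SUC3 library than in any SUC2 library, and overlapped between SUC3 and control, at 107896 to 162210 CPM. Its part in the results was not tested. On the second principal component of log2 CPM, which held 15.8% of the variance, SUC2 library 2 lay at 55.1 and SUC3 library 1 at -52.1, with all others between -14.8 and 9.47. Results are therefore also given without these libraries where that alters a call.

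Of the 13319 genes, 2 differed between the 2% and 1% diets at an adjusted p under 0.05 (edgeR quasi-likelihood test, Benjamini-Hochberg adjustment over all genes tested), which is 0.015% of them. Both, MYF6 and NFIL3, were lower at 2%, and no gene (0%) was higher. DESeq2 on the same counts called 239 genes (1.79%), 134 higher and 105 lower, including both. The unadjusted edgeR p was under 0.05 for 1531 genes (11.5%), 780 of them higher (5.86%) and 751 lower (5.64%) at 2%, where 666 would be expected if no gene differed. The 3 libraries of one diet did not overlap the 3 of the other for 1926 genes (14.5%), 932 higher (7%) and 994 lower (7.46%) at 2%. The median log2 fold change over all genes was -0.00, with quartiles of -0.23 and 0.27. In the same fit, 191 genes (1.43%) differed between 1% succinate and control and 1 gene (0.00751%) between 2% and control.

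The count of calls depended on single libraries. Without SUC3 library 2 the same test called 66 genes, 32 higher and 34 lower. Without SUC3 library 3 it called 14, and without SUC1 library 2 it called 6. Without SUC2 library 2, or without SUC3 library 1, it called MYF6 alone. With both of these left out, an alternative chosen after seeing the data, it called 2 genes, MYF6 and one that is not NFIL3. In simulated counts with 200 genes changed in SUC3, the test recovered 16 of 98 genes changed 2-fold and 72 of 98 changed 4-fold. It also made 5 false calls. Many true changes make the adjusted threshold easier to pass, so these shares may be too high for the real comparison with its 2 calls. A change of 2-fold was thus mostly below what 3 libraries per diet could show.

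**Figure D1:**
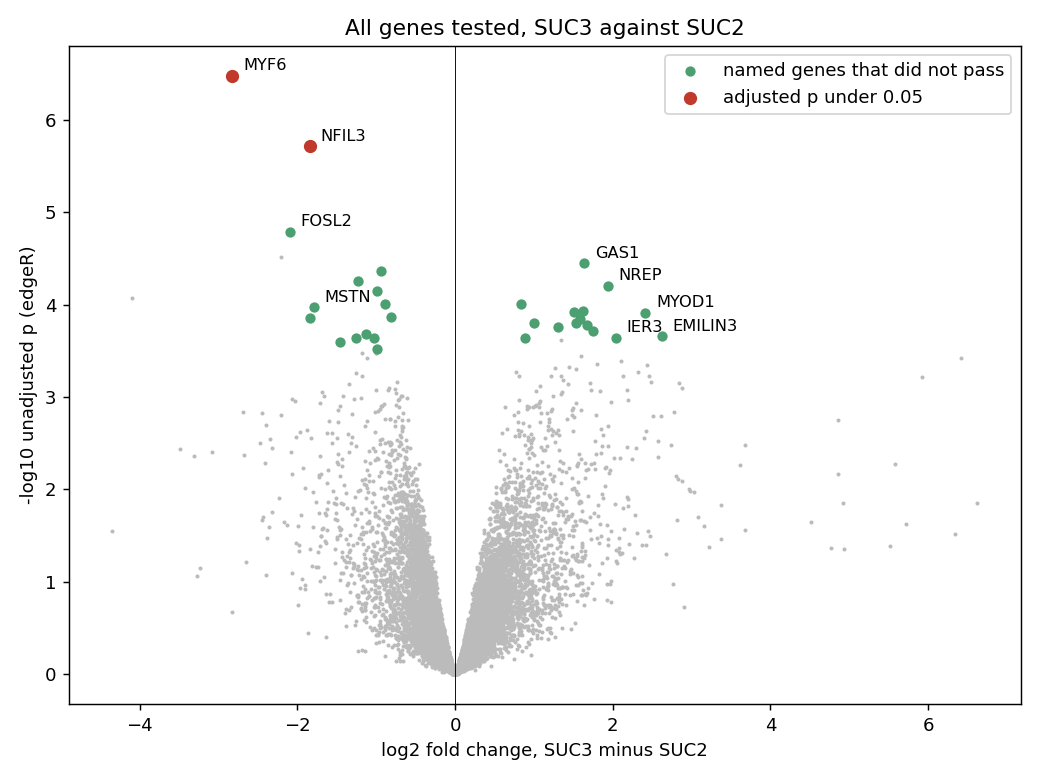
Log2 fold change of 2% over 1% succinate for each gene tested (horizontal axis) against -log10 of the unadjusted edgeR p (vertical axis). MYF6 and NFIL3 are the only genes that passed the adjusted threshold, both on the lower side, while the other named genes lie on both sides.

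MYF6 was the gene with the smallest p. It lies on chromosome 3 at 116764528-116765939 on the plus strand, as the deposited table gives it, 6916 bases upstream of MYF5, and the table does not name its genome build. Its level was 786, 709 and 678 CPM in the SUC2 libraries and 61.2, 105 and 141 CPM in the SUC3 libraries. The lowest library on 1% succinate was thus well above the highest on 2%, and the reads behind these values numbered 11003 to 15029 per library in SUC2 and 1145 to 2352 in SUC3. The means were 724 ± 55.3 CPM at 1% and 102 ± 39.9 CPM at 2%. MYF6 fell by 2.83 on the log2 scale (SE 0.30, edgeR adjusted p = 0.00445), a 7.09-fold lower level at the higher dose.

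Control lay between the 2 higher doses. MYF6 was 286, 217 and 304 CPM in control and 230, 130 and 179 CPM in SUC1. All control libraries were below every SUC2 library and above every SUC3 library, while SUC1 and SUC3 overlapped. Against control, MYF6 was higher by 1.43 at 1% succinate (edgeR adjusted p = 0.033) and its log2 difference was -1.40 at 2%, which did not pass (adjusted p = 0.14). These comparisons share the control libraries, and each also shares its SUC2 or SUC3 libraries with the test of 2% against 1%. MYF6 passed in all 23 alternative settings, with log2 fold changes from -3.13 to -2.56 and a largest adjusted p of 0.0462.

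NFIL3, on chromosome 2 at 26459332-26472435 on the minus strand, was the other gene that passed. Its level was 50.8, 72.8 and 52.8 CPM in the SUC2 libraries and 15.3, 14.6 and 19.2 CPM in the SUC3 libraries. No library of one diet reached the range of the other. NFIL3 fell by 1.84 on the log2 scale at 2% (SE 0.23, edgeR adjusted p = 0.0128), a 3.59-fold lower level.

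In control the level of NFIL3 was 22.2, 16.9 and 16.2 CPM, and in SUC1 it was 26.9, 19.7 and 32.8 CPM. The 2% libraries overlapped control, and every 1% library was above all others. Against control the log2 difference was 1.67 at 1% (edgeR adjusted p = 0.021) and -0.17 at 2% (adjusted p = 0.79). The call for 2% against 1% was made in 19 of 23 alternatives. It was lost without SUC2 library 2, without SUC3 library 1, without both and with replicate number as a block, where the largest adjusted p was 0.260, while the log2 fold change stayed between -1.97 and -1.62.

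**Figure D2:**
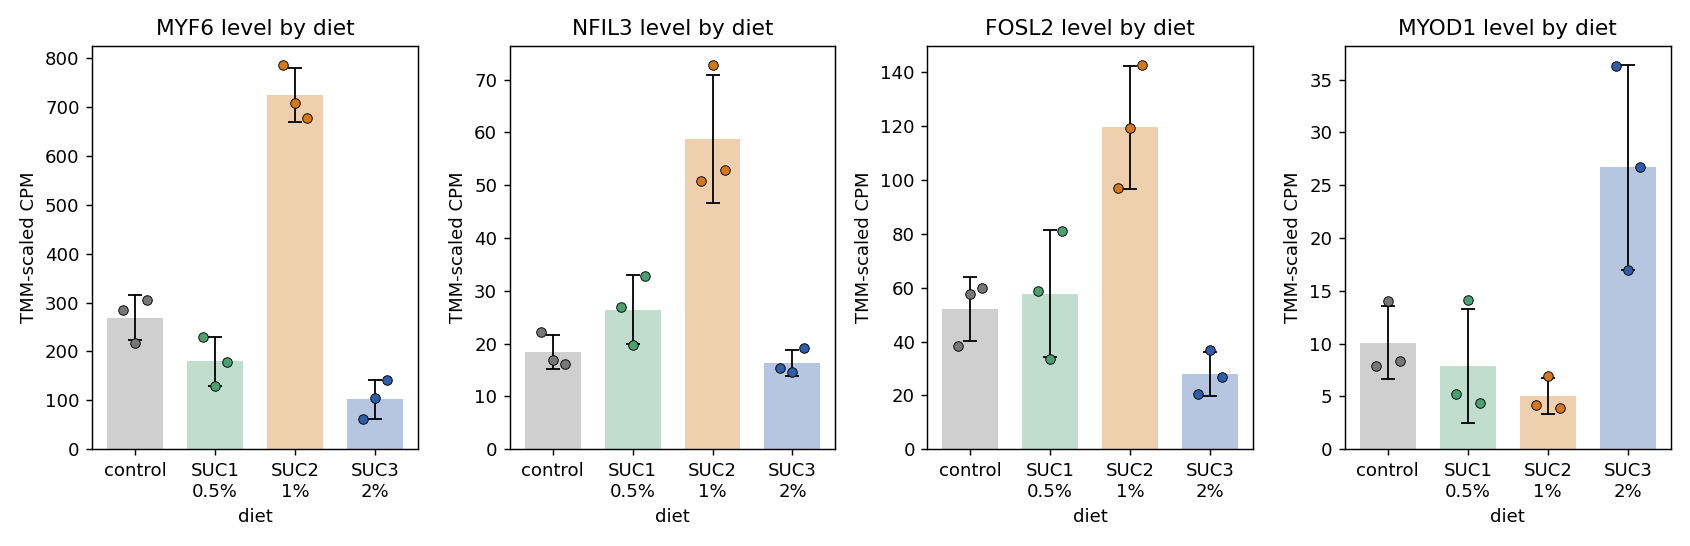
TMM-scaled CPM of MYF6, NFIL3, FOSL2 and MYOD1 in each library (points) by diet, with bars for the mean and error bars for the SD of 3 libraries. MYF6, NFIL3 and FOSL2 were highest in the 1% libraries, and MYOD1 was highest in the 2% libraries.

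None of the other 3 myogenic factors passed the test. MYOD1, which drives myoblasts into differentiation, was 4.18, 6.97 and 3.88 CPM in SUC2 and 36.3, 16.97 and 26.8 CPM in SUC3. The diets did not overlap, and the difference had the opposite sign to that of MYF6, with a log2 fold change of 2.41 (SE 0.45, edgeR adjusted p = 0.0957) that did not pass. In control MYOD1 was 7.86, 14.05 and 8.31 CPM, so its level at 2% was above every control library. MYOG, needed for fusion into fibres, was 13.02, 25.8 and 11.3 CPM in SUC2 and 18.3, 3.70 and 19.6 CPM in SUC3 (adjusted p = 0.866). MYF5, expressed in satellite cells, was 1.42 to 2.46 CPM in SUC2 and 1.44 to 3.64 CPM in SUC3 (adjusted p = 0.972). Both genes overlapped between the diets.

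Set beside each other on a scale corrected for gene length (FPKM, fragments scaled for gene length and library total, as deposited), MYF6 was the most abundant of the 4 factors in all 12 libraries. It stood at 756 to 896 FPKM in SUC2 and 72.5 to 152 FPKM in SUC3. MYF6 made up 96.6% ± 1.504 of the summed FPKM of the 4 factors in SUC2 and 75.6% ± 14.6 in SUC3 (SD, 3 libraries each). In SUC3 library 1 the share was 59.8%. The ratio of MYF6 to MYOD1 was 227 to 420 in SUC2, 3.76 to 13.8 in SUC3 and 34.5 to 81.9 in control, with no overlap among these 3 diets. The share and the ratio restate the differences of MYF6 and MYOD1 given above and add no support to them.

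**Figure D3:**
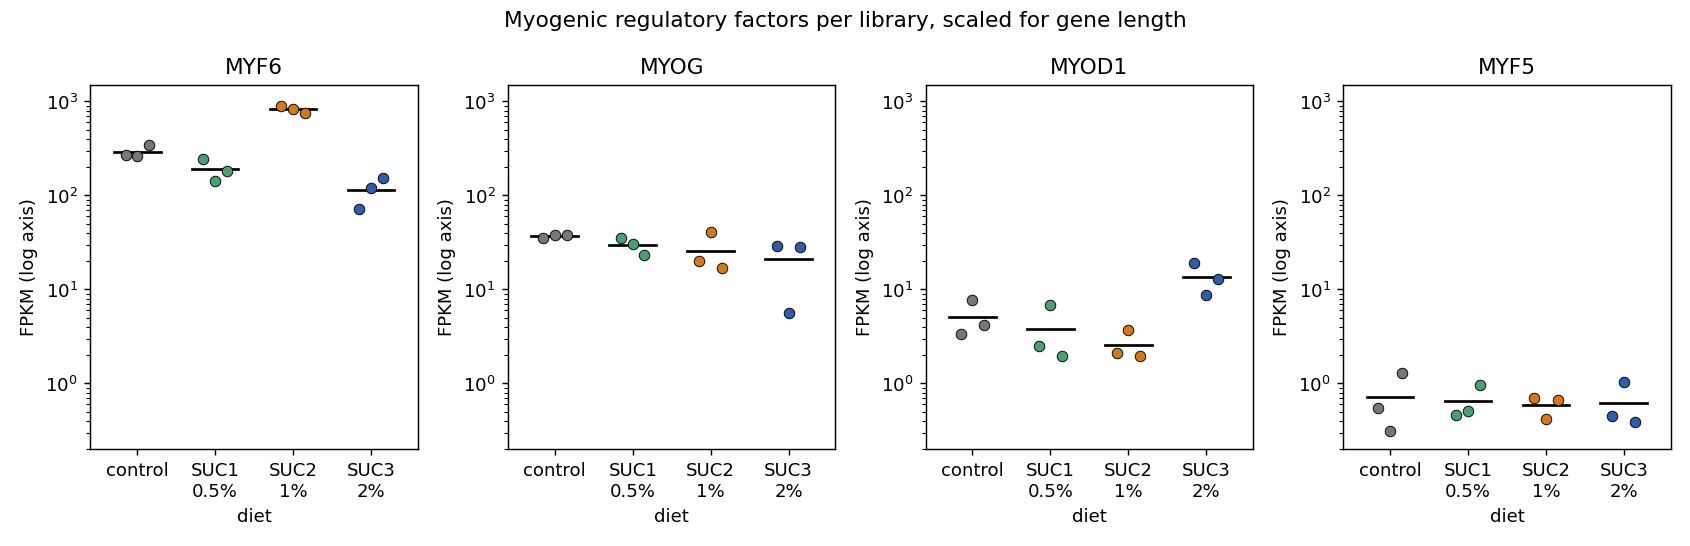
FPKM of the 4 myogenic regulatory factors in each library (points, log axis) by diet, with a line at the mean of 3 libraries. MYF6 was lower and MYOD1 higher in every 2% library than in any 1% library, while MYOG and MYF5 overlapped between these diets.

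Over the whole list of myogenic regulators and satellite cell genes, 21 of 23 genes were tested, and 11 had a positive and 10 a negative log2 fold change, with a median of 0.01 beside -0.00 for all genes and a range of -0.13 to 0.15 among the alternatives. MYF6 was the only member that passed. MSTN, myostatin, the secreted inhibitor of muscle growth, was 59.8, 69.97 and 62.8 CPM in SUC2 and 15.7, 16.8 and 23.05 CPM in SUC3. The diets were apart, and the control libraries, at 51.6, 41.98 and 60.03 CPM, were nearer to SUC2. Its log2 fold change of -1.79 (SE 0.33, edgeR adjusted p = 0.0957) did not pass.

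MEGF10, a receptor of satellite cells, was 2.67, 1.83 and 2.47 CPM in SUC2 and 6.04, 2.86 and 8.62 CPM in SUC3 (log2 fold change 1.32, edgeR adjusted p = 0.204). ACVR2B, the activin receptor that myostatin binds, was chosen after its values were seen. It was 7.06, 10.7 and 8.63 CPM in SUC2 and 35.2, 12.995 and 27.9 CPM in SUC3 (log2 fold change 1.53, adjusted p = 0.143). IGF1, a growth factor that promotes fibre growth, was 11.97, 10.2 and 9.62 CPM in SUC2 and 16.2, 19.04 and 31.6 CPM in SUC3. All 3 of these genes were without overlap and higher at 2%, and none passed (IGF1 log2 fold change 1.07, adjusted p = 0.157).

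None of the 3 activators that share the D-box with NFIL3 passed the test. DBP was 7.63, 6.26 and 3.64 CPM in SUC2 and 8.01, 10.1 and 8.02 CPM in SUC3 (log2 fold change 0.57, edgeR adjusted p = 0.525). HLF was 12.2 to 28.3 CPM in SUC2 and 15.7 to 25.2 CPM in SUC3 (adjusted p = 0.979), and TEF was 18.97 to 36.02 and 31.1 to 38.8 CPM (adjusted p = 0.77). DBP was without overlap by a narrow margin, and the ranges of HLF and TEF overlapped. Against control DBP passed at 1% (log2 difference -1.50, edgeR adjusted p = 0.041) and not at 2% (-0.93, adjusted p = 0.26). TEF passed at neither dose (-1.05 at 1%, adjusted p = 0.052, and -0.83 at 2%, adjusted p = 0.21). HLF did not pass either (adjusted p = 0.92 and 0.90).

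Of 24 clock and D-box genes tested, 13 had a positive and 11 a negative log2 fold change (median 0.14, and -0.20 without SUC3 library 2), and NFIL3 alone passed. BHLHE41 (DEC2), a repressor of CLOCK-BMAL1, was 10.4, 8.86 and 11.04 CPM in SUC2 and 36.97, 34.7 and 15.9 CPM in SUC3 (log2 fold change 1.53, SE 0.29, edgeR adjusted p = 0.0961). Its paralog BHLHE40 was 33.99, 37.8 and 20.9 CPM in SUC2 and 117, 247 and 59.2 CPM in SUC3 (log2 fold change 2.19, adjusted p = 0.200). Neither overlapped between the diets and neither passed. NR1D1 (REV-ERB alpha), a repressor of the clock, was 2.25, 7.92 and 1.23 CPM in SUC2 and 9.24, 4.99 and 4.37 CPM in SUC3, with overlap (adjusted p = 0.666). PER1 also overlapped (adjusted p = 0.916). Against control NR1D1 passed at 1% (log2 difference -2.46, edgeR adjusted p = 0.047) and not at 2% (-1.75, adjusted p = 0.23). PER1 passed at neither dose (adjusted p = 0.89 and 0.99).

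Besides MYF6 and NFIL3, 28 genes, MYOD1, MSTN and BHLHE41 among them, were taken by smallest p among those with no overlap whose higher diet averaged 1 CPM or more, 15 higher and 13 lower at 2%. None passed in edgeR, with adjusted p from 0.0719 to 0.118. DESeq2 called all 30 genes, MYF6 and NFIL3 included. They were picked for these differences, so the values below are a description. Their comparisons with control use the same SUC2 and SUC3 libraries that picked them. A pass at 1% is therefore favoured by the choice and adds no independent support. Over all genes, 1.43% passed at 1% against control and 0.00751% at 2%.

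The lower ones included 4 transcription factors other than MYF6 and NFIL3. FOSL2, an AP-1 subunit, was 96.99, 119 and 143 CPM in SUC2 and 20.6, 36.7 and 26.8 CPM in SUC3, and had the smallest p after MYF6 and NFIL3 (log2 fold change -2.09, SE 0.32, edgeR adjusted p = 0.0719). Control lay between, at 38.3, 57.7 and 59.9 CPM. RUNX1, a runt-domain factor known in mice to be induced in denervated muscle, was 7.48, 13.7 and 16.9 CPM in SUC2 and 3.21, 3.14 and 4.25 CPM in SUC3 (log2 fold change -1.84, adjusted p = 0.0957). In control it was 1.95 to 2.72 CPM, below every library on 1% or 2%. Against control RUNX1 passed at 1% (log2 difference 2.40, edgeR adjusted p = 0.021) and not at 2% (0.56, adjusted p = 0.55). ELF1, an ETS factor, was 26.8, 23.1 and 23.3 CPM in SUC2 and 14.05, 11.1 and 11.7 CPM in SUC3 (log2 fold change -0.99). ZFX, a zinc finger activator, was 61.5, 53.2 and 51.98 CPM in SUC2 and 24.3, 33.4 and 32.3 CPM in SUC3 (log2 fold change -0.89). Both were lower in every 2% library than in any 1% library, and ELF1 at 2% overlapped the control range of 11.8 to 15.6 CPM. Against control ELF1 passed at 1% (log2 difference 0.84, edgeR adjusted p = 0.038) and not at 2% (-0.15, adjusted p = 0.76). ZFX passed at neither dose (0.22 at 1%, adjusted p = 0.52, and -0.67 at 2%, adjusted p = 0.16).

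A second group acts in RNA handling and protein synthesis. PAF1, a subunit of the elongation complex named after it, was 73.04, 61.7 and 101 CPM in SUC2 and 29.4, 39.7 and 31.8 CPM in SUC3 (log2 fold change -1.23). The splicing factor SRSF6 was 170, 198 and 190 CPM in SUC2 and 98.9, 114 and 106 CPM in SUC3 (log2 fold change -0.81). EIF4A1, the RNA helicase of translation initiation, was 58.6, 94.2 and 75.8 CPM in SUC2 and 30.1, 44.9 and 37.1 CPM in SUC3 (log2 fold change -1.03). Each was higher in every 1% library than in any 2% library, with edgeR adjusted p of 0.092, 0.0957 and 0.099. Against control, PAF1 and EIF4A1 passed at 1% (log2 differences 1.37 and 1.32, both adjusted p = 0.021). They did not pass at 2% (0.14 and 0.29, adjusted p = 0.82 and 0.59). SRSF6 passed at neither dose (0.61 at 1%, adjusted p = 0.065, and -0.20 at 2%, adjusted p = 0.62).

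HSPA5 (BiP), the main chaperone of the endoplasmic reticulum, was 168, 156 and 224 CPM in SUC2 and 71.5, 109 and 96.1 CPM in SUC3 (log2 fold change -0.99, edgeR adjusted p = 0.118). HSPA13, another member of the HSP70 family, was 27.4, 33.9 and 28.5 CPM in SUC2 and 7.64, 15.7 and 14.2 CPM in SUC3 (log2 fold change -1.26, adjusted p = 0.099). IER5, an immediate early gene, was 23.7, 12.4 and 16.1 CPM in SUC2 and 6.78, 6.27 and 5.87 CPM in SUC3 (log2 fold change -1.46, adjusted p = 0.103). In control HSPA5 was 74.9 to 79.6 CPM and HSPA13 12.1 to 16.2 CPM, below all 1% libraries. Against control both passed at 1% (log2 differences 1.24 and 1.15, edgeR adjusted p = 0.021 and 0.043). Neither passed at 2% (0.25 and -0.11, adjusted p = 0.65 and 0.89), and IER5 passed at neither dose (adjusted p = 0.17 and 0.38). FAM126B and C5H5orf15 completed the lower genes, with log2 fold changes of -1.12 and -0.94. Against control these 2 passed at 1% (1.39 and 0.78, adjusted p = 0.021 and 0.033). They did not pass at 2% (0.27 and -0.16, adjusted p = 0.65 and 0.71).

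Among the higher ones were regulators of growth and signalling. GAS1, a membrane protein of growth arrest and a Hedgehog co-receptor, was 5.75, 5.61 and 5.24 CPM in SUC2 and 22.2, 16.02 and 13.3 CPM in SUC3 (log2 fold change 1.63, SE 0.27, edgeR adjusted p = 0.092). SUFU, an inhibitor of Hedgehog signalling, was 4.97, 4.55 and 7.15 CPM in SUC2 and 18.8, 18.5 and 9.997 CPM in SUC3 (log2 fold change 1.51). Control libraries lay between the diets for GAS1, at 7.999 to 9.46 CPM, and overlapped SUC3 for SUFU, at 10.3 to 15.1 CPM. NREP, first described in regenerating neurons, was 64.7, 89.3 and 47.1 CPM in SUC2 and 237, 171 and 364 CPM in SUC3 (log2 fold change 1.94). DUSP3, a dual-specificity phosphatase acting on MAP kinases, was 192, 172 and 183 CPM in SUC2 and 321, 367 and 287 CPM in SUC3 (log2 fold change 0.83). IER3, an early response gene of cell survival, was 8.89, 7.21 and 4.07 CPM in SUC2 and 21.96, 38.4 and 22.6 CPM in SUC3 (log2 fold change 2.04). NREP and DUSP3 at 2% were above all control libraries, and IER3 overlapped control.

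Several of the higher genes act in energy metabolism. PPARGC1B (PGC-1 beta), a coactivator of mitochondrial genes, was 13.2, 11.8 and 21.8 CPM in SUC2 and 77.8, 32.8 and 38.9 CPM in SUC3 (log2 fold change 1.67, SE 0.32, edgeR adjusted p = 0.0962). PFKFB2, which makes and breaks down the glycolytic activator fructose 2,6-bisphosphate, was 8.26, 9.34 and 4.81 CPM in SUC2 and 28.5, 26.4 and 12.6 CPM in SUC3 (log2 fold change 1.59). PPP1R3D, a subunit that directs protein phosphatase 1 to glycogen, was 10.2, 13.1 and 13.4 CPM in SUC2 and 32.6, 29.6 and 28.6 CPM in SUC3 (log2 fold change 1.31). For PPARGC1B and PFKFB2 control overlapped SUC3 and lay above every SUC2 library, at 35.8 to 39.96 CPM and 19.7 to 24.1 CPM. At 1% against control PFKFB2 passed (log2 difference -1.53, edgeR adjusted p = 0.033) and PPARGC1B did not (-1.29, adjusted p = 0.064). Neither passed at 2% (adjusted p = 0.95 and 0.65).

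DNMT3A, a de novo DNA methyltransferase, was 36.97, 36.8 and 36.1 CPM in SUC2 and 75.9, 66.7 and 60.2 CPM in SUC3 (log2 fold change 0.88). Against control its log2 difference at 1% was -0.99 (edgeR adjusted p = 0.027), and the difference at 2% was -0.11 (adjusted p = 0.84). The remaining higher genes were EMILIN3, an extracellular matrix glycoprotein, at 0.236 to 0.925 CPM in SUC2 and 1.74 to 6.41 CPM in SUC3, and FAM217B, PLEKHF1 and PPM1J, with log2 fold changes of 1.62, 1.75 and 1.01. EMILIN3 rested on 4 to 17 counts per library in SUC2. Against control FAM217B passed at 1% (log2 difference -1.73, edgeR adjusted p = 0.027) and not at 2% (-0.11, adjusted p = 0.91).

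**Figure D4:**
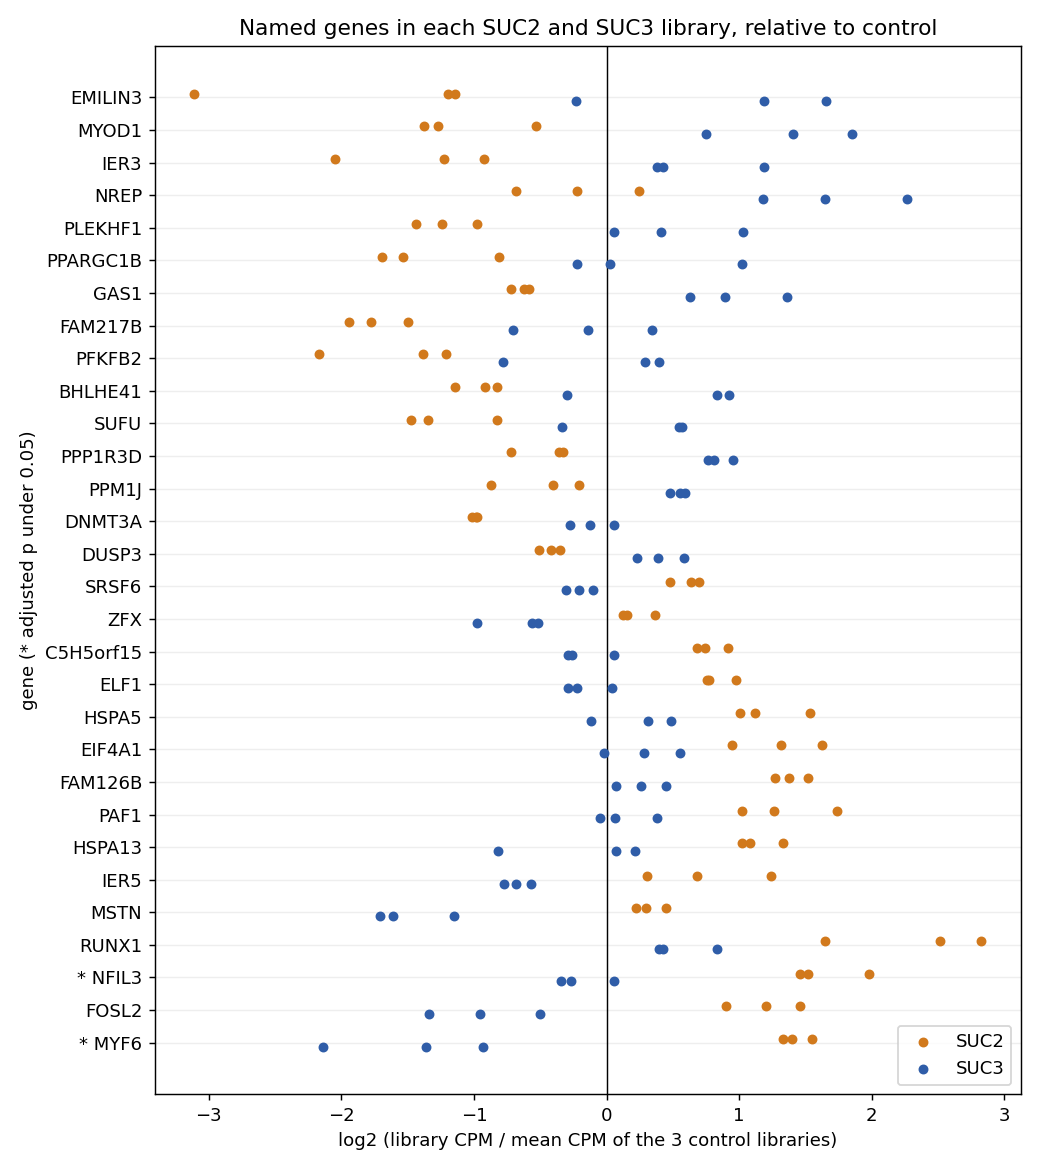
Level of each of the 30 named genes in every SUC2 and SUC3 library as log2 difference from the control mean (horizontal axis). MYF6 lies above control in the 1% libraries and below it in the 2% libraries, and NFIL3 lies above control at 1% and near it at 2%.

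The known lists of muscle genes, metabolism and cell types showed no member that passed other than MYF6 and NFIL3. Because the muscle piece is a mixture of cells, fewer cells of a type and less RNA per cell cannot be told apart. Immune cell markers had the lowest median among the lists with more than 1 tested member. All 16 tested had a negative log2 fold change, with a median of -1.02 beside -0.00 over all genes. Of the 16, 12 did not overlap between the diets, beside 7.46% of all genes in that direction. The low-count filter can keep a weakly expressed marker through the libraries of a single diet where it is high. These counts therefore only describe the markers that were kept. Their summed level was 117 to 152 CPM in SUC2, 59.4 to 91.2 CPM in SUC3 and 57.0 to 96.3 CPM in control.

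The members with the smallest p are markers of macrophages and other myeloid cells. ITGAM (CD11b) was 2.04, 2.13 and 1.85 CPM in SUC2 and 0.427, 0.392 and 0.599 CPM in SUC3 (log2 fold change -2.07, edgeR adjusted p = 0.157). MRC1, the mannose receptor, was 12.1, 14.1 and 8.39 CPM in SUC2 and 4.86, 5.32 and 3.77 CPM in SUC3 (log2 fold change -1.31, adjusted p = 0.16). CD14, a co-receptor for bacterial lipopolysaccharide, was 8.05, 14.95 and 9.19 CPM in SUC2 and 2.67, 5.04 and 4.31 CPM in SUC3 (log2 fold change -1.42, adjusted p = 0.157). The complement gene C1QB was 7.63, 12.6 and 4.62 CPM in SUC2 and 2.40, 2.24 and 4.19 CPM in SUC3 (log2 fold change -1.50, adjusted p = 0.189). None of these overlapped and none passed, and ITGAM rested on 7 to 10 counts per library in SUC3. The gene LOC105612575, described in the table as scavenger receptor cysteine-rich type 1 protein M130 and chosen after its values were seen, was 14.1, 25.6 and 17.9 CPM in SUC2 and 2.94, 6.72 and 2.81 CPM in SUC3 (log2 fold change -2.21, adjusted p = 0.092).

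A further 9 immune markers were below the filter, among them the B cell genes MS4A1, CD79A and CD79B and the granulocyte genes S100A8, S100A9 and S100A12, and none was at 0 in all 6 libraries. These 9 did not all point the same way. Over the 3 libraries of each diet the summed counts were lower at 2% for 5 of them and higher for 4. ADGRE1, a macrophage receptor, had 23 counts at 1% and 6 at 2%, and the T cell receptor subunit CD3D had 32 and 12. The T cell co-receptor CD4 had 16 and 20, and S100A9 had 21 and 23. The uniform sign therefore holds for the members that passed the filter, not for the whole list. Markers high in SUC2 were more likely to pass that filter, so the sign is no independent support. NFIL3, which immune cells also express, was likewise lower at 2% than at 1%. The part of the immune markers in its difference was not tested. Among the 23 alternative settings the median of the immune markers stayed between -1.36 and -0.60, and no marker that passed the filter had a positive fold change. These medians covered only markers kept by the main filter, also in the setting without a filter. They say nothing about the other 9.

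Heat shock and chaperone genes also leaned one way. Of 26 tested, 23 had a negative log2 fold change, with a median of -0.54, and 8 did not overlap between the diets, all lower at 2%, beside 7.46% of all genes. HSF2, a heat shock transcription factor, was 50.2, 53.4 and 47.5 CPM in SUC2 and 15.7, 33.5 and 24.5 CPM in SUC3 (log2 fold change -1.04, edgeR adjusted p = 0.300). BAG2, which assists HSP70 as a cochaperone, was 298, 375 and 566 CPM in SUC2 and 137, 295 and 151 CPM in SUC3 (log2 fold change -1.09, adjusted p = 0.350). SUC2 library 1 and SUC3 library 2 were nearly equal for BAG2. Leaving out single libraries or changing the settings kept the median of the list between -0.66 and -0.38.

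Genes of the unfolded protein response had a median of -0.15, with 18 of 23 negative and a range from -0.99 to 3.04. XBP1, its transcription factor, was 30.4, 26.9 and 33.05 CPM in SUC2 and 19.98, 19.3 and 20.2 CPM in SUC3 (log2 fold change -0.60, edgeR adjusted p = 0.157). Immediate early genes ranged from -2.09 to 2.68, with 18 of 26 negative and a median of -0.48. That median was -0.21 without SUC3 library 3, -0.22 without SUC3 library 1, -0.29 without SUC2 library 3 and -0.80 without SUC3 library 2. BTG2, an antiproliferative gene, was 67.9, 106 and 43.9 CPM in SUC2 and 13.5, 26.3 and 15.7 CPM in SUC3 (log2 fold change -1.97, adjusted p = 0.182). ZFP36, which destabilises AU-rich messages, was 51.9, 39.1 and 66.7 CPM in SUC2 and 12.02, 28.2 and 13.3 CPM in SUC3 (log2 fold change -1.56, adjusted p = 0.184). IER3, described above, went the other way.

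Slow-twitch fibre genes leaned upward, with 12 of 16 positive and a median of 0.42, and 5 did not overlap, all higher at 2%, beside 7% of all genes. The median was 0.25 without SUC2 library 3 or SUC3 library 3, 0.64 without SUC2 library 2 and 0.80 with SUC2 library 2 and SUC3 library 1 both left out. MYH7, the slow myosin heavy chain, was 3766, 2474 and 3830 CPM in SUC2 and 5949, 5532 and 5136 CPM in SUC3. All 2% libraries were above the 1% libraries, and the control libraries spanned 1910 to 7131 CPM (log2 fold change 0.72, edgeR adjusted p = 0.576). CASQ2, the slow-fibre and cardiac calsequestrin, was 21.1, 18.03 and 18.9 CPM in SUC2 and 36.3, 28.5 and 42.4 CPM in SUC3 (log2 fold change 0.88, adjusted p = 0.334). Fast-twitch genes had a median of 0.07, which was -0.05 without SUC3 library 3. MYH1, the fast IIx myosin heavy chain, was 28102 to 36277 CPM in SUC2 and 25791 to 35432 CPM in SUC3 (adjusted p = 0.997). MYH2, the IIa chain, was 12511, 8477 and 12176 CPM in SUC2 and 21376, 12850 and 23193 CPM in SUC3, without overlap (log2 fold change 0.79, adjusted p = 0.472).

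Of 26 genes of calcineurin signalling, stretch and the Z-disc, 17 were positive and the median was 0.12, with a range among the alternatives from 0.01 without SUC3 library 3 to 0.34. LMCD1, a LIM-domain activator of calcineurin signalling, was 1012, 922 and 1403 CPM in SUC2 and 167, 369 and 354 CPM in SUC3. The diets were far apart, and control was wide at 32.9 to 240.5 CPM (log2 fold change -1.91, SE 0.63, edgeR adjusted p = 0.285). ANKRD23, a titin-associated stretch protein, was 884, 831 and 970 CPM in SUC2 and 1578, 1483 and 1594 CPM in SUC3 (log2 fold change 0.79, adjusted p = 0.181).

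Metabolic lists stayed near the median of all genes. The 25 TCA cycle and succinate genes tested had a median of 0.08, the 55 nuclear respiratory chain genes 0.07, the 13 mitochondrially encoded genes -0.04, the 30 fatty acid genes 0.03 and the 29 glycolysis and glycogen genes 0.15. Among the alternatives these medians ranged from -0.12 to 0.19, -0.03 to 0.17, -0.28 to 0.14, -0.05 to 0.12 and 0.02 to 0.22 in the same order, so all but that of glycolysis took both signs. Within glycolysis, PFKFB3, a kinase that raises fructose 2,6-bisphosphate, was 1249, 583 and 903 CPM in SUC2 and 83.3, 242 and 224 CPM in SUC3, the opposite sign to PFKFB2 (log2 fold change -2.32, edgeR adjusted p = 0.202). PHKG1, which carries the kinase activity of the muscle enzyme that switches on glycogen phosphorylase, was 67.6, 65.01 and 54.01 CPM in SUC2 and 107, 103 and 105 CPM in SUC3 (log2 fold change 0.75, adjusted p = 0.16). Both were without overlap.

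PDK4, the kinase that turns off pyruvate dehydrogenase, was 13015, 10471 and 10253 CPM in SUC2 and 4100, 7105 and 6531 CPM in SUC3 (log2 fold change -0.93, edgeR adjusted p = 0.372). PPARGC1A (PGC-1 alpha) was 27.3, 133 and 40.9 CPM in SUC2 and 123, 383 and 27.2 CPM in SUC3, with overlap (log2 fold change 1.41, SE 0.83, adjusted p = 0.548). Its value rested on SUC3 library 2 and was 0.17 without it. The succinate receptor SUCNR1 was 0.432 to 1.06 CPM in SUC2 and 0.224 to 0.599 CPM in SUC3 (adjusted p = 0.793), near the 3-count floor.

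Genes of vessels and matrix had positive medians. The 18 endothelial genes had a median of 0.47 with 13 positive, although the median was 0.08 without SUC3 library 1, and -0.16 with SUC2 library 2 left out as well. Their summed level was 435.6 to 885 CPM in SUC2 and 595 to 1148 CPM in SUC3. CLDN5, a tight junction protein, was 12.1, 7.74 and 10.4 CPM in SUC2 and 22.8, 16.8 and 18.1 CPM in SUC3 (log2 fold change 0.93, edgeR adjusted p = 0.187). PLVAP, of fenestrated endothelium, had the opposite sign at 16.00, 16.4 and 27.5 CPM against 8.55, 10.98 and 14.4 CPM (log2 fold change -0.82, adjusted p = 0.286).

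Matrix and fibroblast genes had 24 of 32 positive and a median of 0.27, and 5 did not overlap, all higher at 2%, beside 7% of all genes. The median was 0.15 without SUC2 library 2 and 0.17 without SUC3 library 1. COL15A1, a basement membrane collagen, was 53.02, 29.6 and 35.1 CPM in SUC2 and 167, 65.1 and 125 CPM in SUC3 (log2 fold change 1.60, edgeR adjusted p = 0.126). MMP14, a membrane-bound matrix protease, was 8.63, 7.51 and 7.83 CPM in SUC2 and 17.4, 12.8 and 13.8 CPM in SUC3 (log2 fold change 0.87, adjusted p = 0.185). The summed matrix level was 2511 to 3827 CPM in SUC2 and 3220 to 4471 CPM in SUC3, with overlap.

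**Figure D5:**
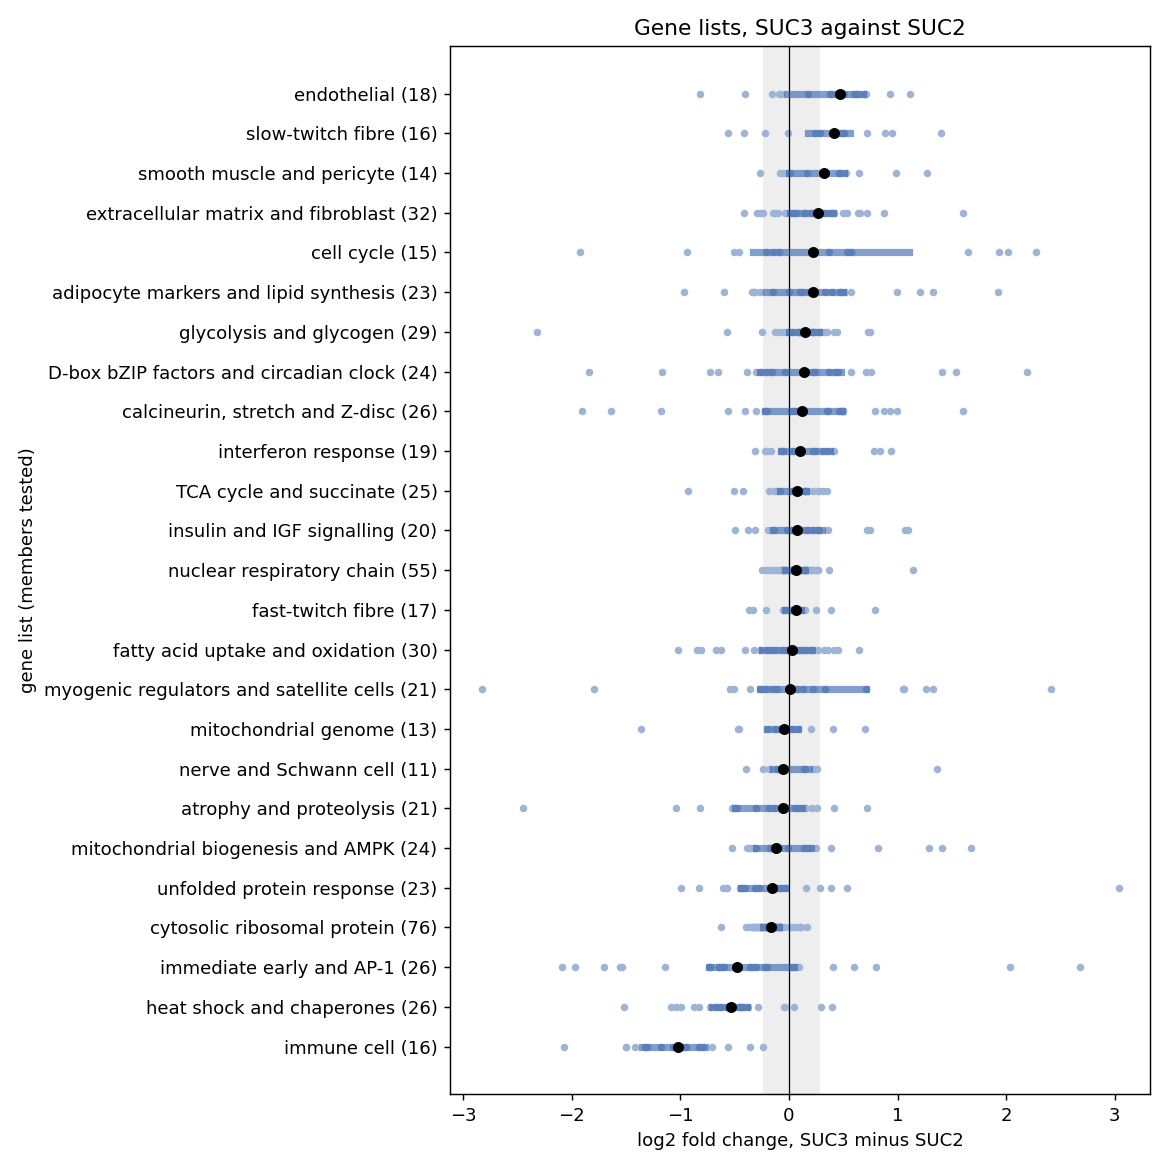
Log2 fold change of 2% over 1% succinate for the members of each list (points), with a bar for the range between the quartiles and a black dot for the median, and a grey band for the same range of all genes. Medians outside the band are those of immune cell (-1.02), heat shock (-0.54), immediate early (-0.48), endothelial (0.47), slow-twitch (0.42) and smooth muscle genes (0.32). Medians of the metabolic lists lie within it. The band shows the spread of single genes, not of list medians.

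Ribosomal protein genes had 67 of 76 negative log2 fold changes, with a median of -0.17, and their sign depended on the libraries used. The median was 0.14 without SUC2 library 2, -0.35 without SUC2 library 3 and 0.28 with SUC2 library 2 and SUC3 library 1 both left out. Smooth muscle and pericyte genes had a median of 0.32 (10 of 14 positive), adipocyte genes 0.22 (16 of 23), insulin and IGF genes 0.08 (13 of 20), interferon genes 0.11 (12 of 19), nerve genes -0.05 (5 of 11), atrophy genes -0.06 (8 of 21) and mitochondrial biogenesis genes -0.12 (9 of 24). Among the alternatives the smooth muscle median ranged from 0.15 to 0.55, and the medians of the others took both signs. The adipocyte median was -0.11 without SUC3 library 2, that of insulin and IGF genes -0.08 without SUC2 library 2, and that of interferon genes -0.08 without SUC2 library 2 and SUC3 library 1 together. The nerve median was 0.10 without SUC2 library 3, the atrophy median 0.04 without SUC3 library 1, and the mitochondrial biogenesis median 0.10 with SUC2 library 2 and SUC3 library 1 both left out. In the atrophy list, MT2, a metallothionein, was 8.10, 34.7 and 17.1 CPM in SUC2 and 0.908, 6.11 and 3.95 CPM in SUC3 (log2 fold change -2.45, edgeR adjusted p = 0.159). IGFBP4, which binds IGF1, was 6.95, 7.51 and 6.78 CPM in SUC2 and 17.1, 10.5 and 17.7 CPM in SUC3 (log2 fold change 1.09, adjusted p = 0.159). Both were without overlap between the diets.

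Of 15 cell cycle genes tested, 8 were positive and the median was 0.23, with a range among the alternatives from -0.12 to 0.37. MKI67, a marker of dividing cells, was 1.20, 1.005 and 1.42 CPM in SUC2 and 8.12, 2.13 and 4.43 CPM in SUC3 (log2 fold change 2.01, edgeR adjusted p = 0.22). MCM6, of the replication helicase, was 12.7, 15.1 and 12.02 CPM in SUC2 and 5.45, 5.99 and 9.40 CPM in SUC3 (log2 fold change -0.93, adjusted p = 0.157). CDKN1A (p21), the inhibitor of cell cycle kinases, was 129, 287 and 457 CPM in SUC2 and 35.8, 145 and 48.4 CPM in SUC3, with overlap (log2 fold change -1.93, adjusted p = 0.239). None passed.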

How the data were processed

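The authors deposited whole-number read counts per gene, used here as deposited, and FPKM values, which per the file headers sit beside them in the same table. Recomputing FPKM from counts, lengths and column totals gave a largest relative difference of 3.6e-14. The submitters' processing notes name the builds GRCm38 and mm10, which are mouse assemblies, while the table's genes are those of sheep. The sources used here do not give the aligner or the counting program. Strand use was not stated, so reads of overlapping antisense genes could not be told apart. Of 21257 genes, 5117 had placeholder identifiers. The ARS-UI_Ramb_v3.0 gene table, matched by 20874 GeneIDs, named 437 of them, and the deposited descriptions named 26. No per-sample column was left unused (0).

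Genes were kept by filterByExpr with diet as the group (13319). One edgeR 4.0.16 quasi-likelihood model (R 4.3.3) with TMM scaling used diet as its sole term over the 12 libraries, which left 8 residual degrees of freedom, with a biological coefficient of variation of 0.279. All tests across genes were two-sided, p-values were adjusted by Benjamini-Hochberg over the genes kept, and the threshold was 0.05, and edgeR gave every adjusted p-value for which no other tool is named. SE was obtained by dividing the size of the log2 fold change by the square root of the F statistic. Levels are TMM-scaled CPM. Alternatives used DESeq2 1.42.0, limma 3.58.1, other scalings and filters, a replicate block and each library left out. Library shares were compared by exact permutation (SciPy 1.17.1). The steps were tested on simulated counts with 200 changed genes among 13153 genes run.

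The genes and lists were chosen with earlier results of these data known. Named genes had a symbol, an average of 1 CPM or more in the higher diet and no overlap between the diets. Those past the threshold were taken first, by fold change, up to 15 in each direction, and the places were filled by smallest p. A panel of 18 genes and up to 4 members of each list by smallest p were added. Lists are described by counts and medians, with no set test. Every pair of libraries within a diet differed by more than sampling noise, so none looked like a copy of another library of its diet. Pairs across diets were not compared in this way.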

Additional observations from a re-analysis of the deposited data

How the results depend on the processing

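The 2 calls became 6 with no filter on low counts, 4 with limma on log2(FPKM + 1), 5 in a fit of the 6 libraries alone and 239 with DESeq2. Leaving out 1 library at a time gave 1 to 66 calls. The labels do not say whether same-numbered libraries were matched. Their deviations from the diet means correlated weakly (-0.172 to 0.169 over 18 pairs), and 2 of 6 libraries correlated best with their own number. With 3 libraries a diet this cannot show whether any were matched. A replicate block left 1 call, MYF6. The difference in library totals between the diets was 448860 counts with all libraries, and its values without 1 library had a lowest of -37265.8 and a highest of 1309616. The difference in the mitochondrial share was 0.332 percentage points, and without 1 library it had a lowest value of -0.443 and a highest of 1.11. It was -0.432 without SUC3 library 1. All genes whose fold change is given kept their direction in every alternative in which they were tested. The cause of these shifts was not tested. With 3 libraries a diet, 2-fold changes were mostly not detectable, and a p that missed the threshold does not show equal levels.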
